A study of Mus musculus with 18 samples.

Results

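The 9 genes Meis1, Meis2, Meis3, Pbx2, Pbx3, Pbx4, Pknox1, Tgif1 and Tgif2 encode homeodomain proteins of the TALE class, and their levels were followed through differentiation of mouse embryonic stem cells. They were taken by symbol from a table of 54532 genes, and earlier results of these data were known when they were chosen. RNA had been sequenced in 18 libraries of ES-E14TG2a cells, a line of mouse embryonic stem cells. Cells labelled Ctrlv2, Arf-B and Arf-C were sampled at day 0 and at day 8, with 3 libraries in each of the 6 groups. All groups carry the genotype label wild type. In its title the series refers to p19Arf and to cells of the pancreatic lineage. The sources used here do not say how either Arf line was derived. Day 8 cells had received activin A at 20 ng/mL with Matrigel from day 0, then FGF10 at 10 ng/mL with retinoic acid from day 4 on. The retinoic acid dose is given by the labels as 5 μM/ml, and its unit is repeated unaltered. No label says that replicates are separate cultures or that a line is more than 1 clone, so the p-values measure only the spread between these libraries.

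TALE proteins carry an extended loop in the homeodomain. Pbx proteins bind DNA together with Hox proteins and with Meis or Pknox proteins, and Meis partners also keep Pbx proteins in the nucleus. Tgif proteins recognise a DNA core like that of Meis proteins, but recruit corepressors and restrain Smad and retinoid receptor targets. Meis and several Hox genes are known to respond to retinoic acid in stem cells, and Pbx and Meis proteins act with Pdx1 in the pancreas.

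The stretches before the start sites of 4 genes that rose and 1 that fell are shown, because the members' levels moved strongly between the days. They come from the RefSeq promoter table of build GRCm38.p6, which is the assembly of the deposited coordinates, and are written 5′ to 3′ on the gene's strand. That table held 11 windows of 250 bases before a start for 7 of the 9 genes, and only bases outside annotated exons are printed. Of the windows shown, only that of Meis1 lies at the outer start of its annotated gene. Those of Meis2, Meis3, Pbx2 and Tgif1 lie inside the annotated genes, before starts further in, so they do not describe the outer starts. Capitals mark matches to 3 motifs searched on both strands: TGACAG, a core bound by Meis and Tgif proteins, TGATTNAT, a joint site of Pbx and Hox proteins, and AGGTCA, a core of nuclear receptor sites. A match is one of letters only. The Meis1 stretch is chr11:19018986-19019219 on the minus strand, and that of Meis2 is chr2:116064722-116064801 on the minus strand. The Meis3 stretch is chr7:16175185-16175274 and the Pbx2 stretch is chr17:34592009-34592258, both on the plus strand. Of the 5 Tgif1 windows, the stretch at chr17:70849815-70850040 on the minus strand is shown because it alone among the windows of the 9 genes held matches.
Meis1: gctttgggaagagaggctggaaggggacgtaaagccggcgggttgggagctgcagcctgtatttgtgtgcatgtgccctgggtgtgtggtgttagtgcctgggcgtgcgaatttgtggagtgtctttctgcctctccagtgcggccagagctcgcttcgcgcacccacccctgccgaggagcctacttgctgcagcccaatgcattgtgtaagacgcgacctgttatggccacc
Meis2: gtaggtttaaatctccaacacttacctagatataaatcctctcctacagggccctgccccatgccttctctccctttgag
Meis3: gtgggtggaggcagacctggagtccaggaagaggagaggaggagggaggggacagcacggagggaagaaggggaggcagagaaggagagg
Pbx2: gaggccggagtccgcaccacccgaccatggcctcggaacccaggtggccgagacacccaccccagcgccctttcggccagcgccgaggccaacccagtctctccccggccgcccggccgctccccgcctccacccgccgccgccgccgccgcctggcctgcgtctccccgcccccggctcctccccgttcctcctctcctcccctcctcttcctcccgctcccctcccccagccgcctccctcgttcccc
Tgif1: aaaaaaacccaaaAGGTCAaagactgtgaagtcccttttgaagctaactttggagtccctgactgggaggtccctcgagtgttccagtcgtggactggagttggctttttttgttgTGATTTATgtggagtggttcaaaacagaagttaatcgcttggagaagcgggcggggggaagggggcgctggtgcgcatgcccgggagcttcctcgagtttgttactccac

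The Tgif1 stretch holds TGATTTAT 134 bases before the start and AGGTCA 237 bases before it, so the 2 matches do not overlap. Among all 32851 windows of that table, 15.9% held TGACAG, 2.82% held TGATTNAT and 14% held AGGTCA. The Pbx2 window was 77.6% G and C with 27 CpG pairs, the Meis3 window 63.6% with 12, the Meis1 window 59.6% with 13 and the Meis2 window 47.6% with 7. Over all windows the medians were 52.4% and 6 CpG pairs, so the Meis2 window was below the median in G and C content, and the windows of the other 3 genes were above it.

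Depth was ample for all members but Meis1 at day 0. A library held 10432590 to 33311220 reads on genes, so that 3 reads over 1 kilobase correspond to 0.093 to 0.282 FPKM (fragments scaled to gene length and to the library's reads). Meis1 rested on 14 to 27 reads per library at day 0, and the next lowest member value, for Pbx4, rested on 51 reads. FPKM is scaled to gene length, so levels can be set side by side between genes. Cdkn2a, the gene of p19Arf, had group means of 2.72 FPKM for Ctrlv2, 1.99 for Arf-B and 2.29 for Arf-C at day 0. At day 8 they were 32.9, 42.7 and 44.1 in the same order. It was measured in every library of the Arf lines, but as a whole gene, so its transcripts are not told apart.

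**Figure D1:**
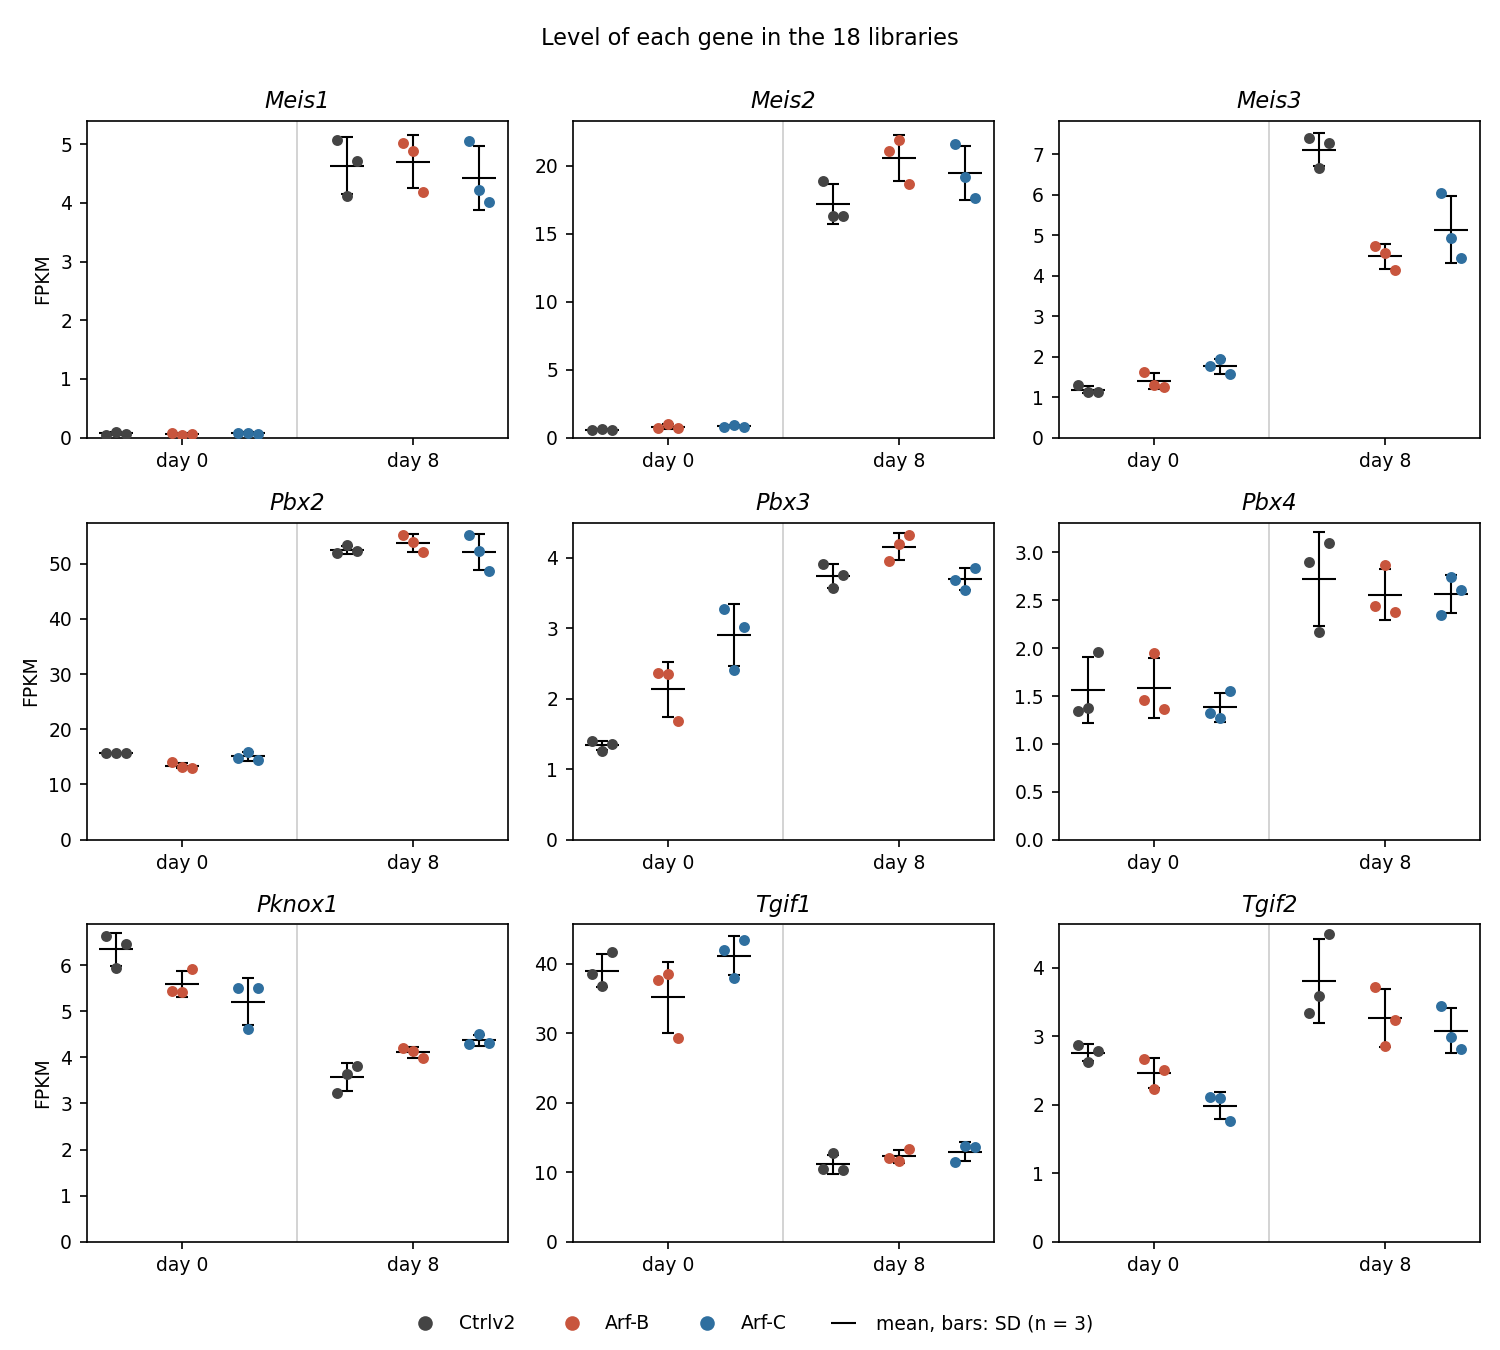
FPKM of each of the 9 genes in every library, in 1 panel per gene with its own linear axis from 0. Points are libraries, coloured by line and placed by day, and black lines give the group mean with its SD (n = 3). Meis1 rises from near 0 to between 4.02 and 5.07, Tgif1 falls to between 10.4 and 13.8, and Pbx3 differs between the lines at day 0 but hardly at day 8.

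Between day 0 and day 8 the 3 Meis genes and the 3 Pbx genes rose, Tgif1 and Pknox1 fell, and Tgif2 rose slightly, in all 3 lines. In the limma fit of log2(FPKM + 1) all 9 genes were called in each line, at an adjusted p below 0.05 over the 17200 genes tested, with 7 higher and 2 lower. Among all genes tested 68.3% were called for Ctrlv2, 66.7% for Arf-B and 66.6% for Arf-C, so calls were common. A gene was tested at 0.5 FPKM or more in at least 3 libraries, which Meis1 met only through day 8. The median log2 change of the 9 genes was 1.02 for Ctrlv2, 0.73 for Arf-B and 0.58 for Arf-C, against medians of -0.01, -0.02 and -0.02 over all genes. In these bulk libraries, a change in the number of cells of a type and a change in RNA per cell cannot be told apart. Over the same days the summed level of 7 markers of undifferentiated cells went from 1879 to 2434 FPKM down to 46.1 to 232, and its part in the members' changes was not tested.

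Meis1 (chromosome 11, 18879817 to 19018985, minus strand), a Hox and Pbx partner known from blood stem cells and the hindbrain, was close to silent at day 0. Its level in Ctrlv2 was 0.0520, 0.102 and 0.0706 FPKM at day 0 and 5.07, 4.12 and 4.72 at day 8. In Arf-B it was 0.0721, 0.0462 and 0.0608, then 5.03, 4.88 and 4.19. In Arf-C it was 0.0860, 0.0814 and 0.0603, then 5.05, 4.22 and 4.02. All day 8 libraries lay far above all day 0 libraries, while the 3 lines overlapped at both days. The ratio of the group means was 62.0 for Ctrlv2, 78.7 for Arf-B and 58.3 for Arf-C, and the log2 changes, which the added 1 FPKM shrinks for so low a start, were 2.39, 2.42 and 2.33 (SE 0.0847 each, adjusted p at most 1.29e-12). Meis1 shared 17% of its 50-base words with other annotated transcripts, mainly Gm37818 (9.04%) and the antisense Gm16140 (7.82%), which stayed below 0.5 FPKM in every group mean.

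Meis2 (chromosome 2, 115863064 to 116065839, minus strand) had the largest change of the 9 genes on the log2(FPKM + 1) scale, while by the ratio of the means, and with a pseudocount of 0.1, Meis1 changed more. Its day 0 level was 0.571, 0.625 and 0.579 FPKM for Ctrlv2, 0.686, 1.01 and 0.683 for Arf-B and 0.811, 0.903 and 0.771 for Arf-C. At day 8 it was 18.9, 16.3 and 16.3 for Ctrlv2, 21.1, 21.9 and 18.6 for Arf-B and 21.6, 19.2 and 17.6 for Arf-C. The days were far apart in each line, with log2 changes of 3.51, 3.59 and 3.48 (SE 0.0899, adjusted p at most 3.66e-14) and ratios of the means of 29.0, 25.9 and 23.5. At day 0 the Ctrlv2 libraries were all below those of either Arf line, and at day 8 the lines overlapped.

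Meis3 (chromosome 7, 16175090 to 16186504, plus strand), a less studied relative that acts in the hindbrain, started higher than its 2 relatives. It rose less than they did on the log2 scale. Its level in Ctrlv2 was 1.29, 1.14 and 1.13 FPKM at day 0 and 7.40, 6.65 and 7.27 at day 8. In Arf-B it was 1.62, 1.30 and 1.25, then 4.73, 4.56 and 4.14, and in Arf-C 1.77, 1.95 and 1.56, then 6.04, 4.92 and 4.44. The log2 change was 1.89 for Ctrlv2, 1.20 for Arf-B and 1.15 for Arf-C (SE 0.0934 each, adjusted p at most 2.01e-08). All Arf libraries lay below all Ctrlv2 libraries at day 8. At day 0 the Arf-C libraries all lay above Ctrlv2, and those of Arf-B overlapped with it.

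The make-up of the Meis group therefore shifted with time. Meis3 accounted for 64.0% ± 3.28 of the summed Meis level in Ctrlv2 at day 0 and Meis2 for 31.9% ± 1.94 (SD, n = 3). At day 8 Meis2 made up 59.4% ± 1.49 and Meis3 24.6% ± 1.05 in Ctrlv2. In Arf-B cells the day 8 shares were 69.1% ± 0.766 for Meis2 and 15.1% ± 0.464 for Meis3, and in Arf-C cells 67.1% ± 0.900 and 17.6% ± 0.761. The shares of both genes at day 8 did not overlap between Ctrlv2 and the Arf lines, although the summed Meis level did, at 27.1 to 31.4 FPKM for Ctrlv2, 27.0 to 31.4 for Arf-B and 26.1 to 32.7 for Arf-C.

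**Figure D2:**
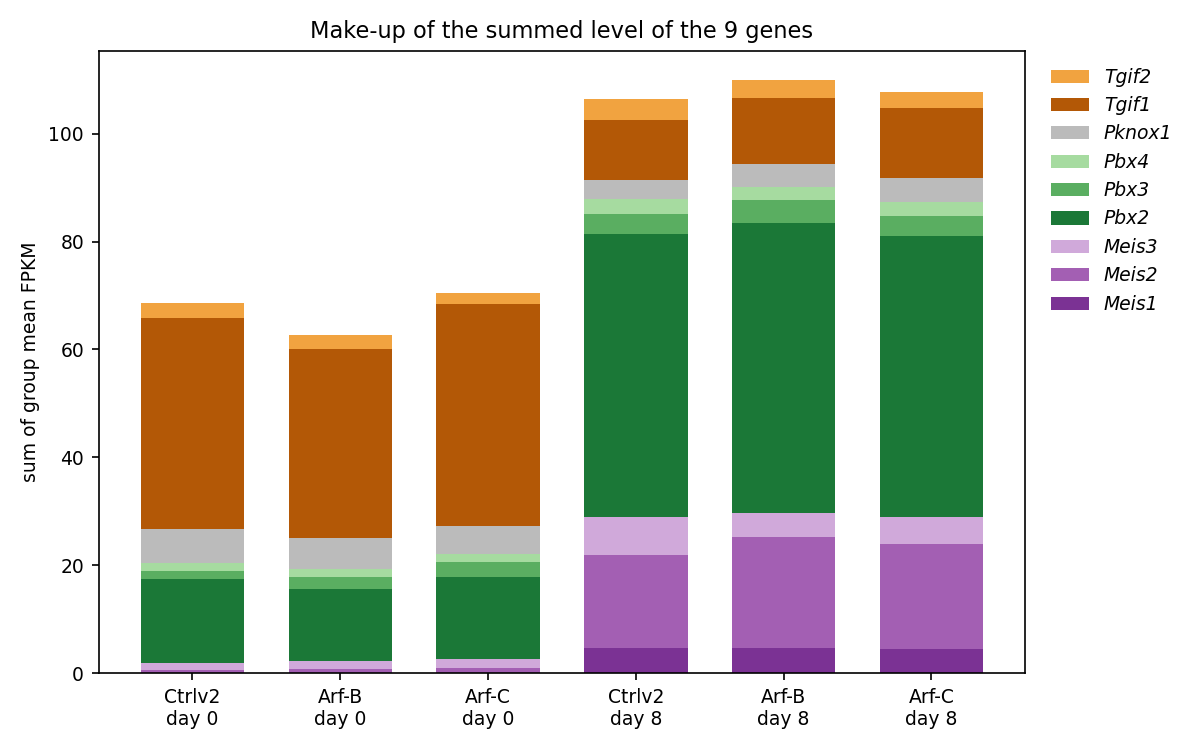
Stacked bars of the group mean FPKM of the 9 genes in each group, from 0, with the Meis genes in purple, the Pbx genes in green, Pknox1 in grey and the Tgif genes in orange. Tgif1 is the largest block at day 0 and Pbx2 at day 8, and the total rises from 68.5 to 106 FPKM in Ctrlv2.

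Pbx2 (chromosome 17, 34591266 to 34597400, plus strand), a broadly expressed Pbx gene, was the most abundant of the 9 genes at day 8. Its level was 15.7, 15.7 and 15.6 FPKM for Ctrlv2, 14.0, 13.2 and 13.1 for Arf-B and 14.8, 15.96 and 14.5 for Arf-C at day 0. At day 8 it was 51.9, 53.3 and 52.2 for Ctrlv2, 55.2, 54.0 and 52.1 for Arf-B and 55.2, 52.3 and 48.7 for Arf-C. Libraries of the 2 days were far apart, and at day 8 the 3 lines overlapped. The log2 changes were 1.68, 1.92 and 1.72 (SE 0.0522, adjusted p at most 1.89e-13), close to ratios of the means of 3.35, 4.00 and 3.45. Pbx2 shares 227 exon bases with Gpsm3 on the same strand, whose group means were 3.31 to 7.22 FPKM and lower at day 8 than at day 0 in each line.

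Pbx3 (chromosome 2, 34171457 to 34373142, minus strand), which is known for its part in nervous system development, differed most between the lines at the start. At day 0 it measured 1.39, 1.27 and 1.36 FPKM for Ctrlv2, 2.36, 2.35 and 1.68 for Arf-B and 3.28, 2.41 and 3.02 for Arf-C. At day 8 it measured 3.92, 3.58 and 3.75 for Ctrlv2, 3.96, 4.20 and 4.32 for Arf-B and 3.69, 3.54 and 3.86 for Arf-C. The day 0 ranges of the 3 lines did not meet, whereas at day 8 only Arf-B lay apart. The log2 change was 1.02 for Ctrlv2, 0.73 for Arf-B and 0.27 for Arf-C (SE 0.0924, adjusted p at most 0.0163). The call in Arf-C was lost without Arf-C replicate 2 of day 0 (adjusted p = 0.101) or Arf-C replicate 3 of day 8 (0.0536).

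Pbx4 (chromosome 8, 69832491 to 69872292, plus strand), best known from germ cells, was the lowest Pbx gene of the 3 at day 8. It ranged from 1.27 to 1.96 FPKM over the 9 libraries of day 0 and from 2.17 to 3.10 over the 9 of day 8, so no library of day 0 reached the lowest of day 8. The log2 changes were 0.54, 0.46 and 0.58 (SE 0.117, adjusted p at most 0.00242), and no comparison between lines was called. Pbx2 made up 84.4% ± 1.66 of the summed level of the 3 Pbx genes in Ctrlv2 at day 0 and 89.0% ± 1.09 at day 8 (SD, n = 3). Pbx3 made up 7.22% ± 0.344 at day 0 for Ctrlv2, 12.4% ± 1.67 for Arf-B and 15.0% ± 2.41 for Arf-C, against 6.36% to 6.89% as group means at day 8.

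Pknox1 (chromosome 17, 31564749 to 31607684, plus strand), also called Prep1, is a Pbx partner that competes with Meis proteins and is broadly expressed in the embryo. It measured 6.63, 5.94 and 6.47 FPKM for Ctrlv2, 5.44, 5.41 and 5.91 for Arf-B and 5.51, 4.62 and 5.50 for Arf-C at day 0. At day 8 it measured 3.23, 3.65 and 3.82 for Ctrlv2, 4.21, 4.13 and 3.98 for Arf-B and 4.30, 4.50 and 4.31 for Arf-C. Ctrlv2 was the highest line at day 0 and the lowest at day 8, with ranges apart from both Arf lines on each day. The log2 change was -0.69 for Ctrlv2, -0.37 for Arf-B and -0.21 for Arf-C (SE 0.0702, adjusted p at most 0.0166). With libraries scaled to the same FPKM sum, which moved the median day response of all genes to 0.14 for Arf-B and 0.12 for Arf-C, the changes of Pknox1 in these lines were -0.18 and -0.05 and were not called (adjusted p = 0.0539 and 0.625). The call in Arf-C was also lost in a fit of only the groups compared (0.0530) and without Arf-C replicate 1 (0.0690) or 3 (0.0732) of day 0.

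Tgif1 (chromosome 17, 70844205 to 70853546, minus strand), a repressor of Smad and retinoid targets, was the most abundant of the 9 genes at day 0 and fell in all lines. At day 0 its level was 38.6, 36.8 and 41.6 FPKM for Ctrlv2, 37.6, 38.6 and 29.2 for Arf-B and 42.0, 38.0 and 43.4 for Arf-C. At day 8 it was 10.4, 12.7 and 10.4 for Ctrlv2, 12.03, 11.5 and 13.3 for Arf-B and 11.5, 13.8 and 13.6 for Arf-C. The days were apart and the lines overlapped at both, with Arf-B replicate 3 of day 0 below the others of that day. The log2 change was -1.72 for Ctrlv2, -1.43 for Arf-B and -1.60 for Arf-C (SE 0.107, adjusted p at most 6.71e-09).

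Tgif2 (chromosome 2, 156840007 to 156855570, plus strand), the closest relative of Tgif1, went the other way by a small amount. Its level was 2.87, 2.63 and 2.78 FPKM for Ctrlv2, 2.66, 2.22 and 2.50 for Arf-B and 2.11, 2.09 and 1.76 for Arf-C at day 0. At day 8 it was 3.33, 3.59 and 4.49 for Ctrlv2, 3.71, 2.86 and 3.23 for Arf-B and 3.44, 2.99 and 2.81 for Arf-C. Within each line the days did not overlap, but day 8 values of the Arf lines reached into the day 0 range of Ctrlv2. The log2 changes were 0.35, 0.30 and 0.45 (SE 0.0984, adjusted p at most 0.0136). The Arf-B call was lost without Arf-B replicate 2 of day 0 (adjusted p = 0.0614) or Arf-B replicate 1 of day 8 (0.0755). Tgif2 is the least certain of the values: 67.5% of its 50-base words occur in other annotated transcripts, 54.7% in the antisense gene 5430405H02Rik and 18% in the pseudogene Tgif2-ps2, and the sources used here do not say whether counting used strand. The group means of 5430405H02Rik were 0.153 to 0.365 FPKM.

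With Tgif1 lower, Tgif2 made up a larger part of the Tgif pair at day 8. Its share went from 6.61% ± 0.327 to 25.5% ± 4.28 in Ctrlv2, from 6.65% ± 1.22 to 21.0% ± 2.26 in Arf-B and from 4.63% ± 0.674 to 19.3% ± 3.27 in Arf-C (SD, n = 3). The summed Meis level was 0.0445 ± 0.00384 of the summed Tgif level in Ctrlv2 at day 0 and 1.95 ± 0.315 of it at day 8. The same ratio was 0.0599 ± 0.00265 and 1.92 ± 0.277 for Arf-B, and 0.0621 ± 0.0101 and 1.82 ± 0.325 for Arf-C. Within the 6 groups, the transcripts of the 2 families thus went from mostly Tgif to more Meis than Tgif in every library.

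**Figure D3:**
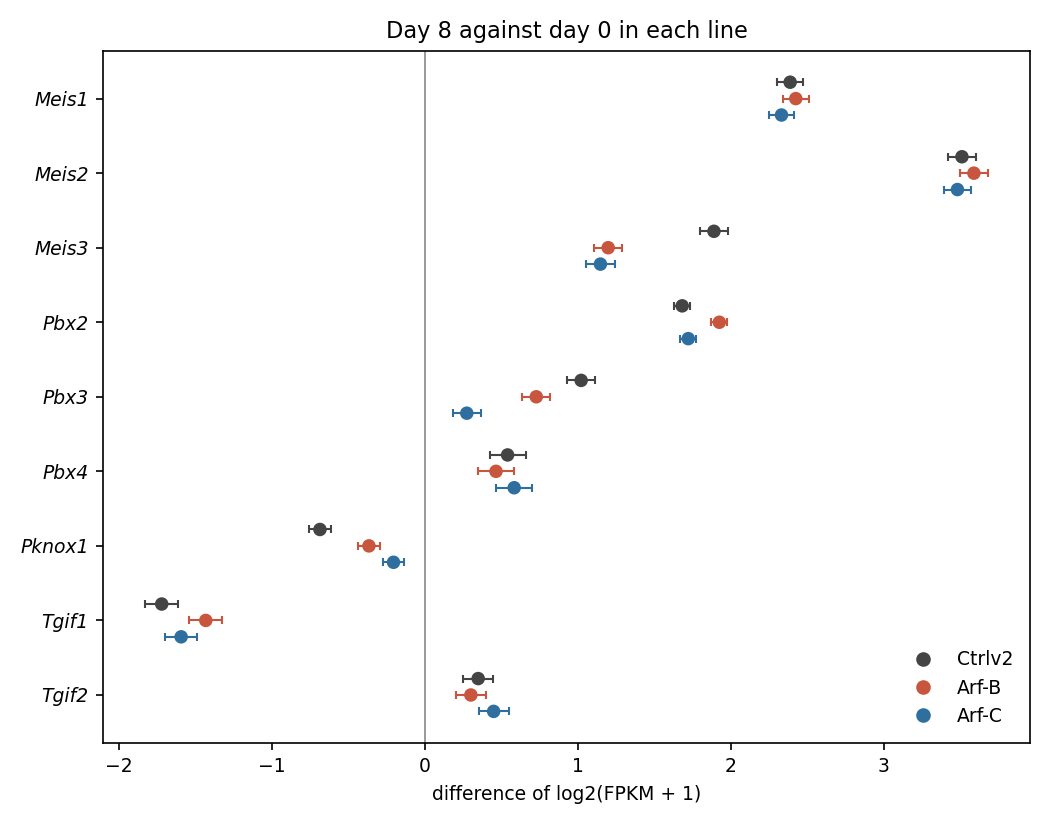
Difference of log2(FPKM + 1) between day 8 and day 0 for each gene and line. Points are estimates of the limma fit and bars their standard errors, and all 27 are called. Meis2 lies near 3.5 in all lines, Tgif1 between -1.72 and -1.43, and Meis3, Pbx3 and Pknox1 are spread by line.

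The lines were then compared with Ctrlv2 at each day. At day 0, 2 of the 9 genes were called in Arf-B (39% of all genes tested were called) and 4 in Arf-C (42.8%). At day 8, 2 were called in Arf-B (33.2%) and 2 in Arf-C (33.6%). The shares of the 9 genes called were near or below those of all genes, so the count itself sets them apart in no comparison with Ctrlv2. Both Arf lines were compared with the same 3 Ctrlv2 libraries of a day, so their differences are not independent of each other.

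At day 0 Pbx3 was higher in both Arf lines, by 0.41 on the log2 scale in Arf-B (SE 0.0924, adjusted p = 0.00217) and by 0.73 in Arf-C (adjusted p = 1.26e-05), with ratios of the means of 1.59 and 2.17. Meis3 was higher in Arf-C by 0.33 (SE 0.0934, adjusted p = 0.00904), and the Arf-B difference of 0.13 was not called (0.323). Pbx2 was lower in Arf-B, at -0.21 (SE 0.0522, adjusted p = 0.00472), and its value of -0.05 in Arf-C was not called (0.462). Pknox1 and Tgif2 were lower in Arf-C, at -0.24 (adjusted p = 0.0104) and -0.33 (0.0124), against -0.16 (0.0926) and -0.12 (0.379) in Arf-B. The call of Pknox1 was lost in a fit of only the groups compared (adjusted p = 0.0612) and without Arf-C replicate 2 (0.0575), and that of Tgif2 without Arf-C replicate 3 (0.0614). Meis2 had differences of 0.17 and 0.20 that were not called (0.162 and 0.0882), although its libraries did not overlap with Ctrlv2. With a pseudocount of 0.1, which weighs low values more, they were 0.35 and 0.42 and were called (0.0397 and 0.0138).

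At day 8 Meis3 was lower in both Arf lines, by the largest differences among the 9 genes at that day. The log2 difference was -0.57 in Arf-B (SE 0.0934, adjusted p = 0.00023) and -0.41 in Arf-C (0.00305), with ratios of the means of 0.630 and 0.722. Pknox1 was higher in Arf-C by 0.24 (adjusted p = 0.0165), and the Arf-B value of 0.16 was not called (0.0868). That Arf-C call was lost in a fit of only the groups compared (0.0574) and without Ctrlv2 replicate 1 (0.0761) or Arf-C replicate 2 (0.0578). Meis2 was higher in Arf-B by 0.25 (SE 0.0899, adjusted p = 0.0471), with overlapping libraries, and the value of 0.17 in Arf-C was not called (0.165). This Meis2 call was lost with a pseudocount of 0.1 (0.141), without a filter on low values (0.0871), in a fit of only the groups compared (0.0532), and without Ctrlv2 replicate 2 (0.143) or 3 (0.1404), or Arf-B replicate 1 (0.124) or 2 (0.169). With libraries scaled to the same sum, Meis2 was called in Arf-C (0.25, adjusted p = 0.0398), and Pbx2 (0.15, 0.0455) and Pknox1 (0.26, 0.0146) were called in Arf-B. Tgif2 had a difference of -0.23 in Arf-C that was not called (0.0825) but was without Ctrlv2 replicate 1 (0.0411). For Meis1, Pbx2, Pbx3, Pbx4 and Tgif1 the differences at day 8 lay between -0.06 and 0.20 and none was called.

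The day responses of 4 genes differed between an Arf line and Ctrlv2 in the test of that difference itself. Of the 9 genes 3 were called for Arf-B, where 33.5% of all genes were, and 3 for Arf-C, where 38.3% were. Meis3 rose less in both Arf lines, with differences of -0.69 (SE 0.132, adjusted p = 0.000882) and -0.74 (0.000422). Pknox1 fell less in both, with differences of 0.32 (SE 0.0993, adjusted p = 0.0207) and 0.48 (0.00138). The Arf-B value of Pknox1 was lost without Ctrlv2 replicate 1 of day 0 (0.0504) or of day 8 (0.0532). Pbx3 rose less in Arf-C, by -0.75 (SE 0.131, adjusted p = 0.000368), and the Arf-B value of -0.29 was not called (0.0980), except without Arf-B replicate 3 of day 0 (0.0150). Pbx2 rose more in Arf-B, by 0.24 (SE 0.0738, adjusted p = 0.0187), where it had started lower.

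Between Arf-B and Arf-C, none of the 9 genes was called at day 0 (0.343% of all genes were called), at day 8 (0.0581%) or in the day response (0.0233%). At an unadjusted limma p below 0.05, 5 of the 9 passed at day 0, 0 at day 8 and 2 in the day response, against 1894, 912 and 1377 of all 17200 genes. The largest difference at day 0 was that of Pbx3, -0.32 for Arf-B minus Arf-C (SE 0.0924, adjusted p = 0.176), and the libraries did not overlap.

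**Figure D4:**
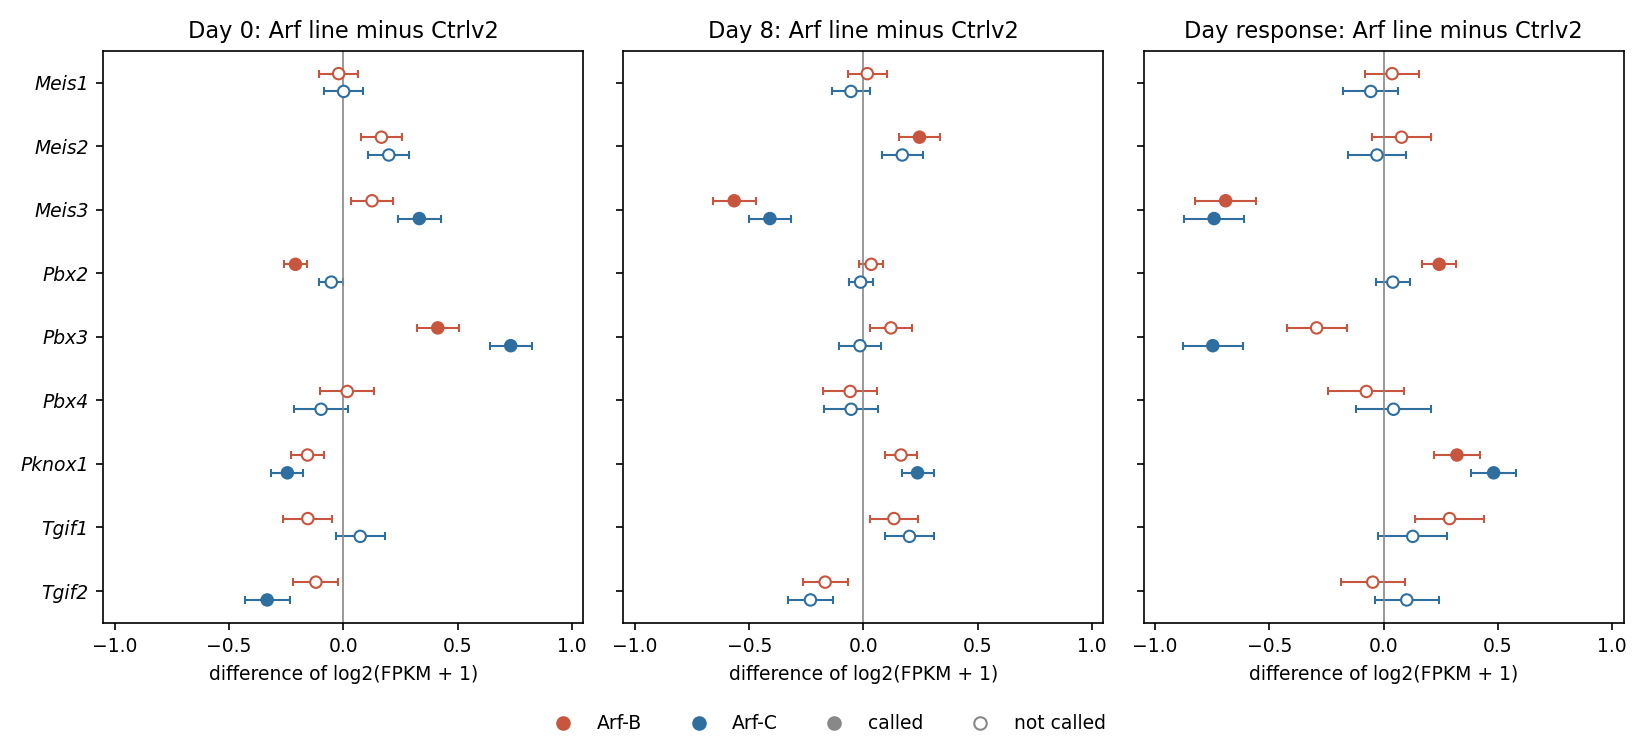
Differences of log2(FPKM + 1) between each Arf line and Ctrlv2 at day 0 (left), at day 8 (middle) and in the day response (right), for the 9 genes. Points are estimates with their standard errors, filled where called. Meis3 lies below 0 at day 8 in both lines, Pbx3 above 0 at day 0, and Pknox1 changes sides between the days.

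The order of the 6 group means shows which neighbours were separate. For Meis1, Meis2, Pbx2, Pbx4 and Tgif1 the only step between neighbours that was called lay between the days. For Meis3 there were 2 called steps, between the days and between Arf-C and Ctrlv2 at day 8 (0.41, adjusted p = 0.00305). Pbx3 had called steps between Ctrlv2 and Arf-B at day 0 and between Arf-C at day 0 and at day 8. For Pknox1 the only called step was that between Arf-C of day 8 and of day 0. For Tgif2 no step between neighbours was called, and its order ran from Arf-C of day 0 (1.99 FPKM) up to Ctrlv2 of day 8 (3.81 FPKM).

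Markers of several cell types also changed between the days and between the lines. A sum follows its most abundant markers and need not hold for a whole list, so calls of single markers are given for several lists. The summed level of 7 markers of undifferentiated cells was 2314 to 2434 FPKM for Ctrlv2, 1879 to 2063 for Arf-B and 2060 to 2148 for Arf-C at day 0. At day 8 it was 46.1 to 56.4 for Ctrlv2, 153 to 211 for Arf-B and 125 to 232 for Arf-C, and all 7 markers fell in each line. The 8 markers of primitive and parietal endoderm summed to 128 to 148 FPKM in Ctrlv2 and 46.3 to 56.2 in the Arf lines at day 0, and to 376 to 491 and 109 to 123 at day 8. The 6 trophoblast markers summed to 14.5 to 20.4 FPKM in Ctrlv2 and 6.61 to 8.22 in the Arf lines at day 0, and to 365 to 431 and 124 to 197 at day 8. Of the 5 tested, 1 was higher and 2 lower than in Ctrlv2 at day 8 in each Arf line. The 6 smooth muscle and fibroblast markers summed to 14.8 to 24 FPKM in Ctrlv2 and 2 to 5.01 in the Arf lines over both days. Of the 4 tested, 1 was higher and 3 lower than in Ctrlv2 at day 8 in each Arf line. Dcn was at 0 in all 3 lines at day 0, and Acta2 and Col3a1 were at 0 in the Arf lines and at means of 0.0192 and 0.00316 FPKM in Ctrlv2. The 7 markers of definitive endoderm and foregut stayed at 1.58 to 3.08 FPKM in sum at day 0, and reached 9.85 to 12.9 in Ctrlv2 and 17 to 20.6 in the Arf lines at day 8. This list did not shift as a whole. Of its 6 tested markers, Arf-B cells had 1 called higher and 1 called lower than Ctrlv2 at day 8. Arf-C cells had 2 called higher and 1 called lower. Pdx1, which marks pancreatic progenitors, was at 0.137 ± 0.043 FPKM for Ctrlv2, 0.506 ± 0.312 for Arf-B and 0.363 ± 0.087 for Arf-C at day 8 (SD, n = 3), which is low in all lines. The 7 neural and hindbrain markers summed to 22.6 to 24.3 FPKM in Ctrlv2 and 14.9 to 17.7 in the Arf lines at day 8, and 7 mesoderm markers to 13.1 to 16.8 and 11.3 to 13.1. Of the 6 neural markers tested, Arf-B cells had 2 called higher and 4 lower than Ctrlv2 at that day, and Arf-C cells 1 and 4. Of the 6 mesoderm markers tested, Arf-B cells had 1 called higher and 1 lower, and Arf-C cells 1 and 2. The 7 blood and endothelium markers summed to 26.3 to 39.1 FPKM at day 0 and 1.84 to 3.96 at day 8, with Hbb-bh1 at 0 throughout. Only 3 of them were tested, and these did not move together. From day 0 to day 8, 1 was higher and 2 lower for Ctrlv2, and 1 and 1 in each Arf line. The part of these markers in the members' differences was not tested.

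Hox genes, whose proteins are the partners of Pbx and Meis on DNA, rose with them. Of 40 rows for 39 Hox symbols 30 were tested. At day 8, 29 were higher and 0 lower for Ctrlv2, 28 and 1 for Arf-B and 28 and 2 for Arf-C. Their median log2 changes were 2.12, 2.86 and 2.78, and 68.3%, 66.7% and 66.6% of all genes were called. A row near 0 at day 0 could pass the filter on low values only through day 8, so the counts of rises are partly built in. These shares and this limit apply to the gene lists below as well. Against Ctrlv2 at day 8, the Arf-B cells had 19 higher and 4 lower rows and the Arf-C cells 18 and 5, with medians of 0.50 and 0.43. Of all genes 33.2% and 33.6% were called in these 2 comparisons. Hoxb1, an early hindbrain gene, was listed at 0 in Ctrlv2 at day 0 and was at 19.1 ± 0.576 FPKM there at day 8, against 75.4 ± 7.69 in Arf-B and 72.5 ± 6.72 in Arf-C (SD, n = 3). Hoxb4 went against most of the list, with 32.4 ± 2.52, 21.3 ± 1.69 and 22.6 ± 0.375 FPKM at day 8 in Ctrlv2 and the Arf lines, and its day response was lower in both Arf lines (log2 -0.51 and -0.50, adjusted p = 0.000746 and 0.000711).

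Of 10 further genes of the TALE class 7 were tested, and all 7 were higher at day 8 in each line, with median log2 changes of 0.98, 0.80 and 0.85. Irx3, a neural patterning gene, went from 0.029 ± 0.0045 to 5.93 ± 0.296 FPKM in Ctrlv2 and to 4.56 ± 0.264 and 4.64 ± 0.449 in the Arf lines. Pknox2, the relative of Pknox1, moved in the other direction from it, from 0.118 ± 0.046 to 2.53 ± 0.275 FPKM in Ctrlv2, and reached 2.11 ± 0.201 for Arf-B and 2.00 ± 0.238 for Arf-C. At day 0 Irx2 and Mkx were higher in both Arf lines, Mkx at 0.803 ± 0.103 and 0.982 ± 0.174 FPKM against 0.129 ± 0.017 in Ctrlv2. Tgif2lx1 and Tgif2lx2 were listed at 0 in all libraries.

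Of 22 genes of the retinoic acid list 19 were tested, and 14 were higher and 2 lower at day 8 for Ctrlv2, 17 and 1 for Arf-B and 16 and 1 for Arf-C, with medians of 3.30, 3.59 and 3.52. The list overlaps in part with the Hox list. Cyp26a1, which degrades retinoic acid, reached 566 ± 32.4 FPKM at day 8 for Ctrlv2, 378 ± 40.6 for Arf-B and 354 ± 50.1 for Arf-C, and was lower in both Arf lines (log2 -0.58 and -0.68, adjusted p = 0.000227 and 5.46e-05). Stra8, a retinoid target of germ cells, was already at 41.9 ± 6.48 FPKM in Ctrlv2 at day 0, against 1.54 ± 0.219 and 2.34 ± 0.353 in the Arf lines.

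Of 18 genes of Smad signalling and Tgif corepressors, all tested, 8 were higher and 10 lower at day 8 for Ctrlv2, 8 and 8 for Arf-B and 8 and 7 for Arf-C. The median log2 changes were -0.48, -0.04 and -0.09. Lefty2, a target of Nodal signalling that Smad proteins switch on, fell from 41.6 ± 0.717 to 3.22 ± 0.461 FPKM in Ctrlv2, from 24.7 ± 5.35 to 2.29 ± 0.827 in Arf-B and from 29.6 ± 2.02 to 0.267 ± 0.260 in Arf-C. Ctbp2, a corepressor that Tgif1 recruits, fell from 47.7 ± 1.35 to 10.4 ± 0.382 FPKM in Ctrlv2, and was at 15.1 ± 0.487 and 14.5 ± 0.138 in the Arf lines at day 8. Ski, another Smad corepressor, rose from 25.5 ± 1.41 to 71.3 ± 4.09 FPKM in Ctrlv2, and reached 54.6 ± 1.79 in Arf-B and 52.2 ± 1.95 in Arf-C. Among these 18 genes Lefty2 was the 1 that differed in day response between Arf-B and Arf-C (log2 1.64, SE 0.248, adjusted p = 0.0352).

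Of 12 other partners and regulators of Pbx and Meis proteins 9 were tested, and 4 were higher and 3 lower at day 8 for Ctrlv2, 4 and 4 for Arf-B and 5 and 3 for Arf-C. The median log2 changes were 0.29, 0.20 and 0.25. Pbxip1, a protein that binds Pbx proteins and hinders their binding to DNA, rose from 5.08 ± 0.566 to 11.97 ± 1.07 FPKM in Ctrlv2. At day 8 both Arf lines had less of it, at 8.44 ± 0.419 and 8.66 ± 0.575 (log2 -0.46 and -0.42, adjusted p = 0.000739 and 0.00129). Kat2a, a histone acetyltransferase, fell from 51.2 ± 3.54 to 24.2 ± 2.11 FPKM in Ctrlv2, from 40.6 ± 3.23 to 26.6 ± 1.54 in Arf-B and from 39.2 ± 1.13 to 29.1 ± 0.214 in Arf-C.

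The 3 genes with the pattern most like each member were found by Pearson's r of log2(FPKM + 1) over the 18 libraries, among 8617 genes that reach a group mean of 5 FPKM. Because the libraries of the 2 days form separate clusters, r over the 9 libraries of a day is given as well, without a test, and all points share their library's depth and scaling. For Meis1 these genes were Tbx2, Fbn2 and Cyp26b1 (r = 1.00 each), with r from -0.27 to 0.54 at day 0, where Meis1 was close to 0, and from 0.75 to 0.94 at day 8. For Meis2 they included Tmem200b and Hoxb8 (r = 1.00 each), with 0.73 and 0.48 at day 0 and 0.79 and 0.86 at day 8. Meis3 was most like Eno2, Shd and Mbd1 (r = 0.99 each), and here r stayed at 0.77 to 0.85 at day 0 and 0.92 to 0.94 at day 8. Shd went from 0.103 to 11.8 FPKM in Ctrlv2 and to 5.77 and 6.07 in the Arf lines.

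For Pknox1 the nearest genes were Kat2a, Parp1 and Iqgap3 (r = 0.97 each), with r of 0.86 to 0.89 at day 0 and 0.82 to 0.86 at day 8. Parp1, a DNA damage sensor, fell from 130 to 54.5 FPKM in Ctrlv2 and from 90.5 to 71.6 in Arf-C, so it too was highest in Ctrlv2 at day 0 and lowest there at day 8. Pbx3 was most like Ncoa6, Elovl4 and H2-Q4 (r = 0.96 each), with 0.94 each at day 0 and -0.25 to 0.19 at day 8, when Pbx3 hardly varied. For Pbx2 the genes were Baiap2l1, Gdf11 and Slc25a24 (r = 1.00 each), but r was 0.33 to 0.84 at day 0 and 0.37 to 0.56 at day 8. Pbx4 was most like Dynlt3, Trerf1 and Zscan4f (0.93 to 0.95), with 0.64 to 0.77 at day 0 and 0.44 to 0.62 at day 8. For Tgif1 the genes were Mybl2, Hspa9 and Rbpms2 (0.99 each), with r of 0.15, 0.67 and 0.59 at day 0 and 0.60 to 0.87 at day 8. Tgif2 was most like Fkbp10, Galnt10 and Flna (0.92 each), and here r was 0.82 to 0.86 at day 0 and 0.74 to 0.83 at day 8.

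Meis2 lies in a stretch of chromosome 2 that earlier results of these data had singled out for low values in the Arf lines. Along it 264 genes beside Meis2 were tested, with starts from 115581716 to 144599897. At day 0, 9 of them were higher and 144 lower in Arf-B than in Ctrlv2 (median log2 -0.34), and 12 were higher and 134 lower in Arf-C (-0.33). At day 8 the Arf-B counts were 10 and 150 (-0.38), and those of Arf-C 12 and 152 (-0.37). Meis2 itself had positive differences in all 4 comparisons, of 0.17, 0.20, 0.25 and 0.17, of which only that of Arf-B at day 8 was called. Within 1 Mb of Meis2 3 other genes were tested, and none of them was called higher in an Arf line. In each Arf line 1 of them was called lower at day 0 and 2 at day 8. Within 1 Mb of Meis3 37 other genes were tested, of which 7 rose above and 9 fell below Ctrlv2 at day 8 for Arf-B (median -0.02), and 8 and 7 for Arf-C (0.03). Near Pbx3 18 were tested, with 1 higher and 5 lower in Arf-B at day 0 (-0.01) and 3 and 5 in Arf-C (0.01).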

How the data were processed

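RNA of 18 libraries of mouse ES-E14TG2a cells (3 lines, 2 days, 3 libraries per group) was sequenced from polyadenylated RNA, per the labels. The authors deposited 1 table of FPKM values per gene, with coordinates and gene lengths. The submitters' processing notes name HISAT2, featureCounts, DESeq2 and mm10, and strand settings are not given in the sources used here. FPKM times gene length was a whole number of steps for 100% of values above 0 (tolerance 0.001 reads), which gave reads per gene. Of 54532 genes 53499 match GENCODE vM21, as do 8 of the 9 members.

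Values were taken as log2(FPKM + 1). Genes at 0.5 FPKM or more in at least 3 libraries were tested with limma 3.58.1 (statmod 1.5.0, R 4.3.3) in 1 fit of all 6 groups, with trend and robust settings and Benjamini-Hochberg adjustment over 17200 genes. The procedure was tested on simulated data. Errors are SD with n = 3, or the fit's standard error. Count models were not used, although reads per gene could be recovered from the deposited FPKM. Figures were drawn with matplotlib 3.10.9 (Python 3.11.15, pandas 2.3.3, numpy 2.4.6).

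Members, gene lists and marker lists were chosen with earlier results of these data known. All members are named, and of each list some of the up to 4 called genes with the highest group mean in a comparison. Pdx1, Tgif2lx1 and Tgif2lx2 were chosen after their values were seen. For each member the 3 genes of highest r were taken. Some genes of the lists, and 1 of those most like Meis2, are not reported here. Libraries of a group differed by more than sampling noise. Alternatives were a pseudocount of 0.1, no filter, a mean of at least 1 FPKM, median-ratio scaling, scaling to the same sum, fits of only the groups compared, a replicate block and leaving out each library.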

Additional observations from a re-analysis of the deposited data

Results flagged for a closer look

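The change from day 0 to day 8 differed between an Arf line and Ctrlv2 in 6 cases, each by the interaction term of the limma fit adjusted over all genes tested. The same test called 33.5% of all 17200 genes for Arf-B and 38.3% for Arf-C. The share of members called was not above these shares, so their number alone does not set the members apart. For Meis3 the difference was -0.69 on the log2 scale in Arf-B (SE 0.132, adjusted p = 0.000882) and -0.74 in Arf-C (adjusted p = 0.000422), a smaller rise than in Ctrlv2. For Pbx3 it was -0.75 in Arf-C (SE 0.131, adjusted p = 0.000368), also a smaller rise. For Pknox1 it was 0.32 in Arf-B (SE 0.0993, adjusted p = 0.0207) and 0.48 in Arf-C (adjusted p = 0.00138), a smaller fall. For Pbx2 it was 0.24 in Arf-B (SE 0.0738, adjusted p = 0.0187), a larger rise from a lower start. The summed level of undifferentiated markers at day 8 was 46.1 to 56.4 FPKM in Ctrlv2 and 125 to 232 in the Arf lines. Its part in these differences was not tested.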

How the results depend on the processing

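The number of members called changed by more than 1.5 times in 2 comparisons, both at day 8. For Arf-B against Ctrlv2 the 2 calls became 1 with a pseudocount of 0.1, 1 without a filter, 1 with only the groups compared and 4 with libraries scaled to the same sum, and they were 1 to 2 as single libraries were left out. For Arf-C against Ctrlv2 the 2 calls became 1 with only the groups compared and 1 to 2 as single libraries were left out. Over single members and settings other than leaving out a library, 740 of 753 values kept their side of the threshold, 8 lost a call and 5 gained one. Meis1 did not pass the filter in fits of day 0 groups alone. Over libraries left out, 792 of 810 kept it, 16 lost a call and 2 gained one, and no called value changed sign. The sign differed in 10 and 36 values that were called in neither fit. No clear pairing by replicate number was seen, although a weak shared effect could be missed by this check. Deviations of same-numbered libraries correlated at -0.25 to 0.20, with 3 of 45 pairs above 0.1, and 8 of 18 libraries correlated best with their own number. With the replicate number as a block, the 9 members had 9, 9 and 9 calls in the 3 day responses, 2 and 4 against Ctrlv2 at day 0 and 2 and 2 at day 8, as without the block, and no member's call changed. Depth limits mainly Meis1 at day 0, with 14 to 27 reads per library.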
